A study of Mus musculus with 6 samples.

Results

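Cerebellar granule cell genes were followed on 6 single-colour mouse arrays of a brainstem and cerebellum dissection, 3 from wild-type mice and 3 from mice labelled MSA transgenic. The set is a list of 30 genes of granule cells or of their lineage. All non-control probes named for a listed gene were taken, which gave 82 of the 56605 probes on the array. Of these probes 76, for 29 of the 30 genes, were well above background throughout 1 genotype or both and were tested, among 24932 genes tested in all. All mice were aged 16 weeks, and both genotypes had the mixed strain background C57BL/6, 129 and C3H. The labels do not spell out MSA, and they give neither the transgene, nor a promoter that drives it, nor the sex of the mice. The design sets transgenic brain against wild-type brain at this age. The labels do not say whether the samples came from separate animals, so p-values measure only the spread between these samples.

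Granule cells are the small excitatory neurons of the cerebellar cortex. Their precursors arise from the rhombic lip under the transcription factor Atoh1, divide in the external granular layer in response to Sonic hedgehog from Purkinje cells, and then migrate inwards past Purkinje cells to form the internal granular layer. Their axons, the parallel fibres, release glutamate and the cerebellin proteins onto Purkinje cell dendrites. Since whole tissue was measured, a differing share of granule cells in a sample and differing RNA per granule cell cannot be told apart in any value below.

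No granule cell gene changed between the genotypes at the threshold used. In limma with Benjamini-Hochberg adjustment over all genes, 0 of the 29 members were called at an adjusted p of 0.05, where 0.0441% of all genes were called. The members' adjusted p ran from 0.817 to 0.997, 0 members had an unadjusted p under 0.05 in limma, and 5.86% of all genes did. The estimates were nevertheless mostly on one side, with 25 of 29 members lower and 4 higher in the transgenic samples, against 50.1% of all genes lower. The median difference of the members was -0.16 on the log2 scale, and that of all genes was -0.00. Single differences ran from -0.35 for En2 to 0.51 for Zic2. The 95% interval of the difference included 0 for all 29 members. The interval of Zic1, for example, reached from 0.711 to 1.03 times the wild-type level and that of Neurod1 from 0.680 to 1.38 times.

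**Figure D1:**
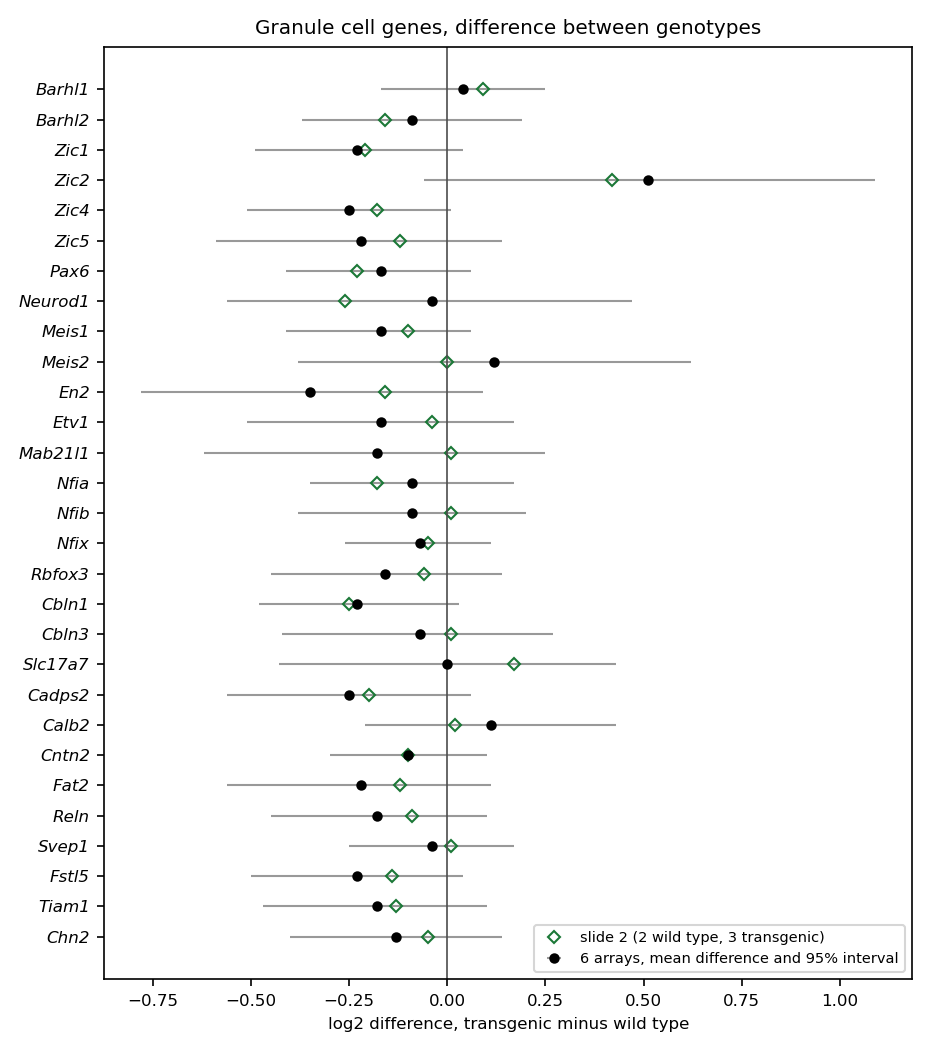
Log2 difference between the transgenic and wild-type means for the 29 tested granule cell genes. Black points and bars are the difference over 6 arrays with its 95% interval, and green diamonds are the difference within slide 2. Black points lie below 0 for 25 genes and every bar crosses 0.

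The arrays did not contribute evenly to this tilt. Wild-type replicate 1 was hybridised on a slide of its own and the other 5 samples together on slide 2. Its 75th percentile signal was 405.7 intensity units against 535.0 to 609.2 on the rest, and 64.8% of its probes lay well above background against 68.6% to 71.7%. This array gave the highest of the 6 values for 19 of 29 members, where it did so for 32.7% of all genes. Transgenic replicate 3 gave the lowest value for 15 members, against 17.0% of all genes. The median deviation of the members from their own means was 0.21, 0.04 and -0.00 on wild-type replicates 1 to 3 and -0.00, -0.04 and -0.16 on transgenic replicates 1 to 3. Blocking on slide leaves 2 wild-type and 3 transgenic arrays to compare, and the median then was -0.10, and 21 of 29 members were lower against 52.8% of all genes. It was also -0.10 without transgenic replicate 3. Within slide 2, 0 members were called, against 0.0281% of all genes, and 2, Pax6 and Nfia, had an unadjusted p under 0.05 in limma, where 8.80% of all genes did. Groups within slide 2 did not overlap for 12 members lower and 1 higher, where the shares over all genes were 15.2% and 13.3%.

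**Figure D2:**
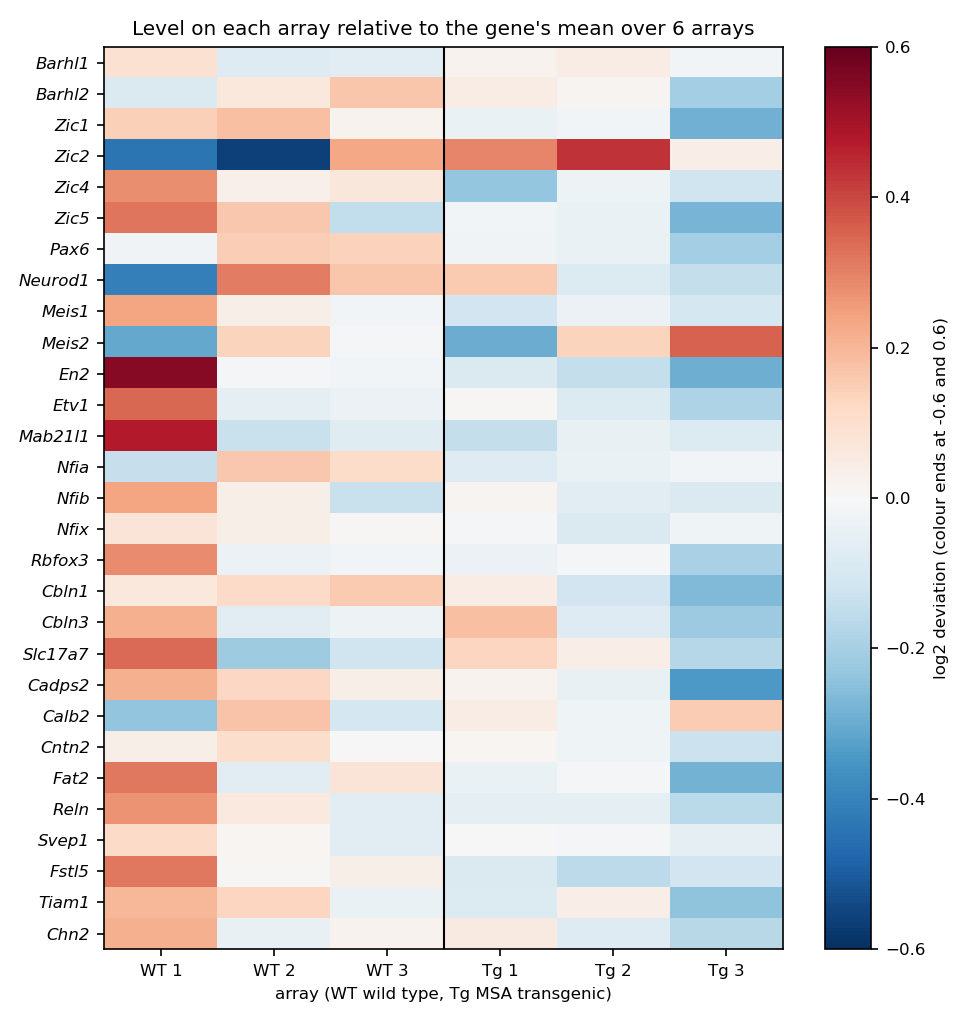
Level of each granule cell gene on each array as the log2 deviation from that gene's mean over the 6 arrays, with wild-type arrays left of the line and transgenic arrays right of it. Red is above and blue below the mean; wild-type replicate 1 is the highest array for 19 genes and transgenic replicate 3 the lowest for 15.

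Over all 6 arrays the genotypes did not overlap for 8 members, all lower in the transgenic samples. These were Zic1, Zic4, Meis1, En2, Nfix, Cbln1, Cadps2 and Fstl5. Over all genes 7.50% separated in that direction and 7.40% in the other, in which 0 members separated. Levels below are log2 signals relative to the 75th percentile of the array, so that 0 is the level of that percentile. Each difference is the transgenic minus the wild-type mean in log2 units with its SE, and n is 3 per genotype.

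Among the factors that specify the lineage, Atoh1, which granule cell precursors need to form, was not well above background on any of the 6 arrays and was not tested. Barhl1, a homeobox gene active downstream of Atoh1, stood at 0.05, -0.12 and -0.11 in wild type and at -0.02, 0.00 and -0.06 in transgenic samples. Its groups overlapped, with a difference of 0.04 ± 0.09, and its second probe gave 0.21 ± 0.17. Barhl2, its paralogue, was measured at -0.34, -0.19 and -0.09 in wild type and at -0.21, -0.24 and -0.46 in transgenic samples. The lowest value was that of transgenic replicate 3, and the difference was -0.09 ± 0.11.

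The Zic genes encode zinc finger transcription factors that mark granule cells from precursor to adult. Zic1 was at 6.60, 6.64 and 6.48 in wild type and at 6.42, 6.44 and 6.17 in transgenic samples. All 3 transgenic values were below the wild-type ones, with a difference of -0.23 ± 0.11 (limma adjusted p = 0.817). Without transgenic replicate 3, the lowest of the 6, the difference was -0.14. Zic4 was at 0.47, 0.22 and 0.26 in wild type and at -0.04, 0.16 and 0.07 in transgenic samples. Its groups were separate too, and the difference was -0.25 ± 0.11 (limma adjusted p = 0.817). The other Zic4 probes were split, since 3 were lower and 1 higher, from -0.30 ± 0.18 to 0.06 ± 0.21.

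Zic1 and Zic4 lie head to head on chromosome 9, and the gene starts used here are 3204 bases apart. Their full RefSeq spans overlap, so no stretch lies between the genes. The 250 bases before each start are shown here because the pair are neighbours and the genotypes did not overlap for either. They come from RefSeq on GRCm38.p6, Zic1 at chr9:91365769-91366018 on the minus strand and Zic4 at chr9:91368722-91368971 on the plus strand. Neither holds a motif searched for below, so no letter is in capitals.
Zic1: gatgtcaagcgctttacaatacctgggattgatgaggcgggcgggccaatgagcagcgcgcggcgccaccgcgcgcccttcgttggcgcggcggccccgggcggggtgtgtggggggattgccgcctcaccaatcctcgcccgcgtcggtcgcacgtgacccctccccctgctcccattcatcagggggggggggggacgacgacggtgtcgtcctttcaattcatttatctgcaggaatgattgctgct
Zic4: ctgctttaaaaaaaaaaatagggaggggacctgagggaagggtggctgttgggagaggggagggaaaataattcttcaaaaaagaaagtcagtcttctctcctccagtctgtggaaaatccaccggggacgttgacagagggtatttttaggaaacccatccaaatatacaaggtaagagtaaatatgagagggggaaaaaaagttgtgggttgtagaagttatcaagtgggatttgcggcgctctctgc

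Zic2 and Zic5 lie close together on chromosome 14 with 1 other gene between them. Zic2 was at 1.82, 1.70 and 2.49 in wild type and at 2.55, 2.69 and 2.30 in transgenic samples. Wild-type replicate 3 lay within the transgenic range while replicates 1 and 2 were lower, and the difference of 0.51 ± 0.23 had a limma adjusted p of 0.817. The second Zic2 probe did not show that size, with 0.07 ± 0.16. Zic5 was at 2.16, 2.0 and 1.69 in wild type and at 1.82, 1.80 and 1.56 in transgenic samples. Those groups overlapped, with a difference of -0.22 ± 0.15, and the other 2 probes gave -0.50 ± 0.22 and -0.05 ± 0.28.

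Pax6, a paired-box factor of granule cell precursors that stays on in the mature cell, was at 1.74, 1.91 and 1.90 in wild type and at 1.74, 1.72 and 1.56 in transgenic samples. Wild-type replicate 1 tied with the highest transgenic sample, and the difference was -0.17 ± 0.10. Within slide 2 it was -0.23 ± 0.08 (limma unadjusted p = 0.0392, adjusted p = 0.547). The other 3 tested probes of Pax6 were lower as well, from -0.14 ± 0.19 to -0.25 ± 0.19. A pair of its probes reads alternative splice forms of the paired domain, so their sequences are given as the array's designers placed them on mm9. Both contain the same 10 bases, in lower case before the capitals, and the capitals mark what follows the junction. The probe for the form with the short alternative exon spans chr2:105524098-105524949, and the probe for the form without it spans chr2:105524106-105525093, both on the plus strand.
With the alternative exon: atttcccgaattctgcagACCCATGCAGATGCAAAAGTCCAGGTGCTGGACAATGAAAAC
Without it: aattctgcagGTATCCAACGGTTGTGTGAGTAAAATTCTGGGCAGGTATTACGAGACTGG

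The probe of the form without the exon was well above background on all 6 arrays and gave -0.14 ± 0.19. The probe of the form with it was well above background on 2 of 3 arrays in each genotype, so it was not tested.

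Neurod1, a basic helix-loop-helix factor of differentiating granule cells, was at 4.44, 5.16 and 5.02 in wild type and at 5.01, 4.77 and 4.71 in transgenic samples. Wild-type replicate 1 was the lowest of all 6, unlike in most members, and the difference was -0.04 ± 0.21. Within slide 2 it was -0.26 ± 0.12, with separate groups (limma adjusted p = 0.604). Meis1, a homeobox cofactor of granule cell precursors, was at 3.36, 3.16 and 3.11 in wild type and at 3.01, 3.09 and 3.02 in transgenic samples. Its groups were separate with a difference of -0.17 ± 0.10, which was -0.10 within slide 2, and all 4 probes were lower, from -0.11 to -0.25. Its paralogue Meis2 was at 1.11, 1.55 and 1.41 in wild type and at 1.12, 1.55 and 1.77 in transgenic samples. Those values were interleaved, with a difference of 0.12 ± 0.20 and -0.00 ± 0.20 within slide 2.

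En2, a homeobox gene that patterns the midbrain and hindbrain, was at 4.80, 4.25 and 4.24 in wild type and at 4.17, 4.11 and 3.96 in transgenic samples. It had the lowest estimate of the 29 members, -0.35 ± 0.18, and its wild-type replicate 1 was 0.65 above the mean of the other 5 arrays. Within slide 2 the difference was -0.16 ± 0.09. Etv1, an ETS factor induced as granule cells mature, was at 5.82, 5.42 and 5.44 in wild type and at 5.48, 5.39 and 5.29 in transgenic samples. Again wild-type replicate 1 stood apart, the groups overlapped, and a difference of -0.17 ± 0.14 became -0.04 ± 0.09 within slide 2. Mab21l1, a gene of granule cell precursors, was at -0.06, -0.67 and -0.61 in wild type and at -0.68, -0.58 and -0.62 in transgenic samples. Wild-type replicate 1 stood above the other 5 arrays, and a difference of -0.18 ± 0.18 became 0.01 ± 0.07 within slide 2.

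Nuclear factor I proteins switch on the genes of granule cell maturation, dendrites and synapses. Nfia was at 1.45, 1.75 and 1.70 in wild type and at 1.51, 1.55 and 1.57 in transgenic samples. Only wild-type replicate 1 lay below the transgenic values, and the difference was -0.09 ± 0.10 over 6 arrays and -0.18 ± 0.07 within slide 2 (limma unadjusted p = 0.0448, adjusted p = 0.561). Nfib was at 3.87, 3.67 and 3.50 in wild type and at 3.65, 3.57 and 3.55 in transgenic samples. Its groups overlapped, with -0.09 ± 0.12 over 6 arrays and 0.01 ± 0.09 within slide 2. Nfix was at 3.22, 3.18 and 3.15 in wild type and at 3.14, 3.06 and 3.12 in transgenic samples. The Nfix groups were separate by a narrow margin, and the difference was -0.07 ± 0.08 (limma adjusted p = 0.824). The other tested Nfix probes had overlapping groups and gave -0.18 ± 0.18 and -0.13 ± 0.13.

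Another probe of Nfia carried the smallest p of the 76 tested probes in the set. It lies at chr4:97709202-97709261 on mm9, is assigned to an Ensembl transcript of the gene, and was well above background on all arrays. Its level was -4.00, -4.28 and -4.16 in wild type and -4.74, -5.05 and -4.93 in transgenic samples. This is a dim probe, since the lowest level flagged well above background was -5.47 to -6.00 across the arrays. The groups were separate with a difference of -0.76 ± 0.12, and in limma over all 38463 probes its unadjusted p was 0.000833 and its adjusted p 0.246. The other 3 Nfia probes gave -0.09 ± 0.11, -0.15 ± 0.13 and 0.06 ± 0.23.

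Nfix has overlapping probes that differed in how far wild-type replicate 1 stood above the other arrays. A pair of its probes, on the minus strand of chr8 in mm9 at chr8:87250447-87251024 and chr8:87250416-87250475, share 29 bases, which are in capitals.
First Nfix probe: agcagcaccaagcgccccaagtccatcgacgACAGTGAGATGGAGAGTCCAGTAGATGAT
Second Nfix probe: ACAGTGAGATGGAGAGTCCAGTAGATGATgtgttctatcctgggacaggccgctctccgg

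On wild-type replicate 1 the first was at 2.70, while the other 5 arrays ran from 2.03 to 2.22. The second was at 3.22 there and ran from 3.06 to 3.18 elsewhere. The differences between genotypes were -0.18 ± 0.18 and -0.07 ± 0.08.

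Rbfox3, the splicing regulator also known as the neuronal antigen NeuN and abundant in granule cells, was at 5.95, 5.63 and 5.65 in wild type and at 5.63, 5.66 and 5.47 in transgenic samples. Apart from wild-type replicate 1 the groups were interleaved, with -0.16 ± 0.12 over 6 arrays and -0.06 ± 0.09 within slide 2.

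At the synapse, Cbln1, the secreted cerebellin that links parallel fibres to the delta glutamate receptor on Purkinje cells, was at 6.30, 6.35 and 6.39 in wild type and at 6.28, 6.12 and 5.97 in transgenic samples. The groups were separate by a narrow margin, and the difference was -0.23 ± 0.10 (limma adjusted p = 0.817). It was -0.25 ± 0.11 within slide 2 and -0.15 without transgenic replicate 3, which held the lowest value. A second Cbln1 probe gave 0.01 ± 0.11. Cbln3, a cerebellin restricted to granule cells, was at 0.98, 0.70 and 0.74 in wild type and at 0.95, 0.69 and 0.55 in transgenic samples. Its groups overlapped, and its probes gave -0.07 ± 0.14 and 0.04 ± 0.10. Slc17a7, the vesicular glutamate transporter that loads parallel fibre vesicles, was at 1.19, 0.64 and 0.73 in wild type and at 0.98, 0.89 and 0.68 in transgenic samples. Its difference was -0.00 ± 0.17, with a 95% interval from -0.43 to 0.43.

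Cadps2, which primes dense-core vesicles for release and is needed for neurotrophin secretion from granule cells, was at 3.80, 3.71 and 3.62 in wild type and at 3.61, 3.54 and 3.24 in transgenic samples. The highest transgenic value lay just under the lowest wild-type value, and the difference was -0.25 ± 0.13 (limma adjusted p = 0.817). Without transgenic replicate 3 it was -0.14. A probe in the middle of Cadps2 was at 0.27, 0.35 and 0.28 in wild type and at 0.12, 0.02 and -0.22 in transgenic samples. Its groups were separate, with -0.33 ± 0.12 (limma unadjusted p = 0.0293, adjusted p over probes = 0.843). Calb2, the calcium buffer calretinin, was at 1.57, 1.98 and 1.70 in wild type and at 1.85, 1.78 and 1.96 in transgenic samples. Its groups overlapped with a difference of 0.11 ± 0.13, and its probes ran from -0.01 to 0.22.

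The adhesion and matrix genes were all lower over 6 arrays without being called, and 4 of 5 were lower with slide as a block. Cntn2, the axonal adhesion molecule TAG-1 of young granule cells, was at 2.62, 2.69 and 2.59 in wild type and at 2.60, 2.56 and 2.46 in transgenic samples. Its groups overlapped by a narrow margin, with -0.10 ± 0.08. Fat2, a giant cadherin of parallel fibres, was at 3.61, 3.23 and 3.37 in wild type and at 3.25, 3.28 and 3.01 in transgenic samples. Wild-type replicate 2 fell inside the transgenic range, and the difference was -0.22 ± 0.14. Reln, the secreted glycoprotein that positions Purkinje cells, was at 3.61, 3.40 and 3.28 in wild type and at 3.29, 3.29 and 3.18 in transgenic samples. The difference was -0.18 ± 0.11, and its 6 probes ran from -0.25 ± 0.18 to -0.00 ± 0.18.

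Svep1, a large extracellular matrix protein, was at 0.57, 0.47 and 0.39 in wild type and at 0.46, 0.45 and 0.40 in transgenic samples, with overlapping groups and a difference of -0.04 ± 0.08. Fstl5, a secreted follistatin-like protein, was at 1.30, 0.99 and 1.02 in wild type and at 0.90, 0.83 and 0.87 in transgenic samples. All transgenic values were below all wild-type values, with -0.23 ± 0.11 over 6 arrays and -0.14 ± 0.07 within slide 2 (limma adjusted p = 0.817 and 0.634). All 3 Fstl5 probes were lower, from -0.12 ± 0.14 to -0.35 ± 0.17.

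The set also holds a pair of regulators of the GTPase Rac. Tiam1, a Rac exchange factor, was at 1.66, 1.59 and 1.42 in wild type and at 1.38, 1.50 and 1.22 in transgenic samples. Its groups overlapped, with a difference of -0.18 ± 0.11. Its other probes gave -0.29 ± 0.22 and -0.45 ± 0.17, the latter with a limma unadjusted p of 0.037 and an adjusted p over probes of 0.843. Chn2, which encodes the Rac GTPase-activating protein beta-chimaerin, was at 4.60, 4.34 and 4.41 in wild type and at 4.44, 4.31 and 4.22 in transgenic samples. Those groups overlapped, with -0.13 ± 0.11.

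Across every tested probe of the set, 61 of 76 were lower and 15 higher, with a median of -0.13 against -0.01 over all probes. In limma over all probes 0 of the 76 were called, where 0.0286% of all probes were, and 3 had an unadjusted p under 0.05, where 5.59% did. Groups were separate for 11 probes lower and 0 higher, with shares of 7.26% and 6.68% over all probes. Of the 22 genes with more than 1 tested probe, 13 had every probe lower, 2 had every probe higher, and 7 had probes on both sides. The latter were Calb2, Cbln1, Cbln3, Cntn2, Meis2, Nfia and Zic4. Probes of a gene were hybridised with the same RNA and are no replicates of the genotype.

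**Figure D3:**
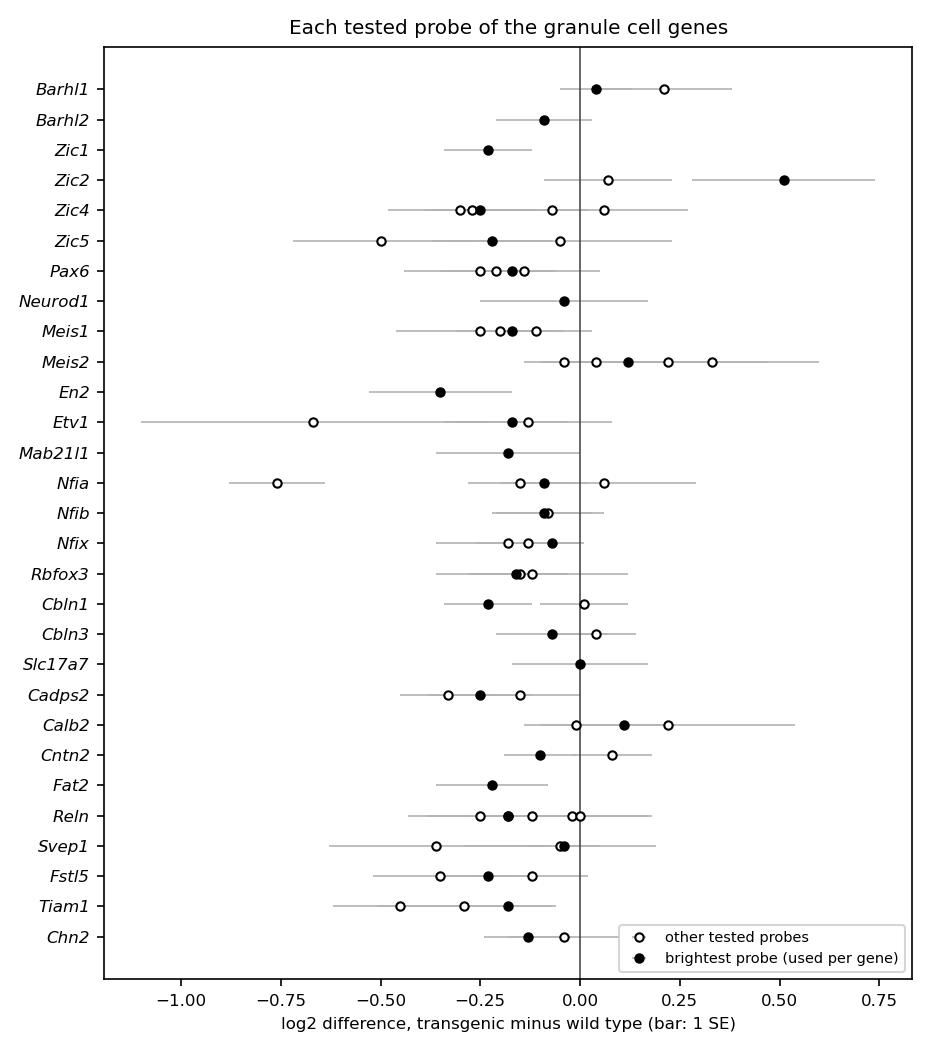
Log2 difference between genotypes for each of the 76 tested probes, by gene, with bars of 1 SE. Filled points are the brightest probe of each gene and open points the others; 61 points lie below 0, and the lowest is a probe of Nfia at -0.76.

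Promoter windows of 250 bases before to 50 after the gene start, from RefSeq on GRCm38.p6, were found for 24 of the 30 members. CAGATG, the E-box form read with its reverse CATCTG that Atoh1 and Neurod1 are known to bind, was present in 6 of the 24 genes (25.0%) against 19.2% of all genes with a window. These were Chn2, Etv1, Fstl5, Nfia, Nfix and Tiam1. The full nuclear factor I site, TTGGC and GCCAA with NNNNN between them, was in 0 of the 24, and in 0.0444% of all genes with a window. Its 6-base form TTGGCA, with the reverse TGCCAA, was in 6 genes (25.0%), Cbln3, Chn2, Etv1, Rbfox3, Tiam1 and Zic5, against 16.1% of all genes. By window the shares of this form were 17.1% for members and 14.1% for all genes. Among the 8 members with separate groups, Cbln1 and En2 had no window, and Fstl5 and Nfix hold the E-box form. The Nfix match is in 1 of its windows and absent from its others. Fstl5 is shown as an example; the match is in 1 of its 2 windows, and no motif searched for is in the other. The 250 bases of the window with the match lie at chr3:76074311-76074560 on the plus strand, and the capitals mark the match, whose first base is at position -72 from the start.
Fstl5: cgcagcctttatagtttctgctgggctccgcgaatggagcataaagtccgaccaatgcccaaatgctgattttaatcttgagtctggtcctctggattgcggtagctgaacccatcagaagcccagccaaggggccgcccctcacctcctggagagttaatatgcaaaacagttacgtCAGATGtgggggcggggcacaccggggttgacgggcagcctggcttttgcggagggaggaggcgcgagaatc

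Other genes of mature granule cells were examined beside the set. Of 15 receptors, channels and calcium sensors, 11 were lower and 4 higher with a median of -0.09, and 0 were called. Fgf14, a modulator of sodium channels, was at 0.56, 0.02 and 0.13 in wild type and at -0.15, -0.20 and -0.15 in transgenic samples. Its groups were separate and wild-type replicate 1 was again the highest, with -0.41 ± 0.15 (limma adjusted p = 0.817). Kcnd2, an A-type potassium channel subunit, had a difference of -0.36 ± 0.18 and Prkce, a protein kinase C, of -0.40 ± 0.22, both with overlapping groups. Within slide 2 the differences were -0.25 for Fgf14, -0.22 for Kcnd2 and -0.23 for Prkce. The 7 defining markers of granule cells, Gabra6, Cbln3, Neurod1, Fat2, Cbln1, Etv1 and Zic1, were well above background on all 6 arrays. Over 6 arrays they had a median of -0.22, with 7 of 7 lower and 0 called. With slide as a block 6 of 7 were lower with a median of -0.12, and without transgenic replicate 3 it was 5 of 7 with a median of -0.13. Apart from Gabra6 these markers are members of the set.

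Genes of the pathways that act on granule cells lay on both sides of 0. Of 15 genes of the Sonic hedgehog pathway 7 were lower and 8 higher with a median of 0.00, and 0 were called. Mycn, the hedgehog target that drives precursor division, differed by -0.30 ± 0.08 with separate groups (limma adjusted p = 0.654), the co-receptor gene Cdon by -0.27 ± 0.10 (0.814) and Ccnd1, cyclin D1, by -0.36 ± 0.17 (0.817). Of 8 reelin receptors and signalling genes 4 were lower and 4 higher with a median of -0.02, and Src had a difference of 0.18 ± 0.08. Of 8 cerebellin partners and paralogues 4 were lower and 4 higher, also with a median of -0.02. Of 12 migration and axon growth genes 9 were lower, and the median was -0.03. Cxcl12, the chemokine that holds precursors at the pial surface, differed by -0.27 ± 0.09 (limma adjusted p = 0.717). Cxcr4, on the same list, differed in the other direction by 0.83 ± 0.40 with overlapping groups (limma adjusted p = 0.817). Cxcr4 was well above background on 2 of 3 wild-type arrays, and its difference within slide 2 was 0.44 ± 0.27. With slide as a block, which leaves out wild-type replicate 1, 5 of 12 migration genes, 2 of 8 reelin genes and 3 of 8 cerebellin genes were lower, and the medians turned to 0.06, 0.06 and 0.04.

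Markers of other cells in the dissection differed between genotypes by varying amounts, and their part in the granule cell values was not tested. Purkinje cell markers were lower in 8 of 9 with a median of -0.15, close to that of the set. Their median deviations were 0.02 to 0.10 on the wild-type arrays and -0.13 to 0.05 on the transgenic ones. Golgi cell and molecular layer markers had a median of -0.07, which became 0.02 with slide as a block, and Bergmann glia and astrocyte markers of -0.06. Each list had its highest array in wild-type replicate 1. Of the 7 Bergmann glia and astrocyte markers 5 were lower and 2 higher, and 0 were called. Gfap, the intermediate filament gene of astrocytes, was among the higher. It had a difference of 0.59 ± 0.11 with separate groups (limma unadjusted p = 0.00172, adjusted p = 0.277). Slc1a2 went the other way by -0.23 ± 0.12, also with separate groups (limma adjusted p = 0.817). Unipolar brush cell markers had a median of 0.04 and forebrain markers of 0.01. Microglia markers were higher in 7 of 7 with a median of 0.49, and in 6 of 7 with slide as a block. Oligodendrocyte markers were lower in 6 of 7 with a median of -0.36, and also in 6 of 7 with slide as a block. In each list 1 gene was called, Itgax and Klk6 respectively, where 0.0441% of all genes were. Itgax was well above background on 1 of 3 wild-type arrays, so it passed the filter only through the transgenic samples. On no transgenic array did the microglia median fall within the wild-type range, and the same held for oligodendrocytes.

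Brainstem neuron markers were lower in 7 of 10 and higher in 3, and 0 were called. Their median was -0.21, or -0.04 without transgenic replicate 1. The array medians ran from -0.00 to 0.12 in wild type and from -0.34 to 0.21 in transgenic samples. Among the lower markers, Hoxa5 differed by -0.65 ± 0.53 with overlapping groups and Chat by -0.24 ± 0.12 with separate groups. The markers varied among samples of 1 genotype. Dbh, dopamine beta-hydroxylase of noradrenergic neurons, was at -0.06, 1.55 and -0.10 in wild type and at 1.51, 1.30 and 1.80 in transgenic samples. The noradrenaline transporter gene Slc6a2 was at -3.56, -1.09 and -3.72 in wild type and at -1.14, -1.72 and -0.99 in transgenic samples. For both genes wild-type replicate 2 lay with the transgenic samples and wild-type replicates 1 and 3 lay below. Both were among the 3 higher markers, with differences of 1.08 ± 0.47 for Dbh and 1.51 ± 0.73 for Slc6a2.

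**Figure D4:**
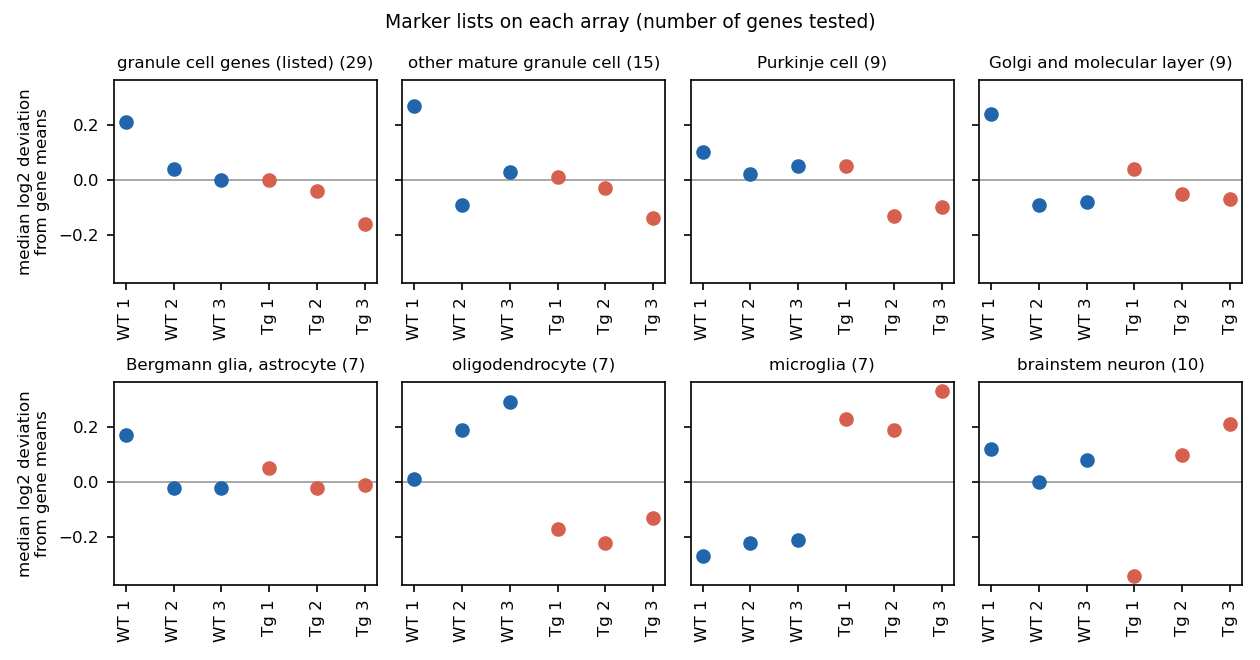
Median log2 deviation of each marker list from its genes' means, on 3 wild-type (WT, blue) and 3 transgenic (Tg, red) arrays, with the number of genes tested in each title. The granule cell genes run from 0.21 on wild-type replicate 1 to -0.16 on transgenic replicate 3, while the microglia and oligodendrocyte lists separate by genotype.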

How the data were processed

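Total RNA of 6 samples was hybridised to 1-colour Agilent arrays, 1 per sample. Feature Extraction 10.7.1.1 made the scanner files and mm9 was the build, per the file headers; the submitters' processing notes name version 9.5.1.1. The deposited spot values are linear intensity, background-subtracted by that software per the file headers. The authors' value table, also intensity, matched a quantile normalization of these signals for at least 99.934% of each column within 0.01 log2, had a median of 59.9, and served as an alternative.

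Control and outlier spots (39 to 84 per array) were left out, 0 were saturated, and spots of a probe were averaged. The log2 signal minus that of the array's 75th percentile was used. Probe names were updated through the RefSeq table of GRCm38.p6. A probe was tested if it stood well above background on every array of a genotype (38463 probes), and each gene took its brightest (24932 genes). Genotypes were compared with limma 3.58.1 (R 4.3.3) with Benjamini-Hochberg adjustment. On simulated data with 24932 genes, recovery was 58% for 100 genes shifted by 1 on the log2 scale and 82% for 100 shifted by 2, with 15 false calls. The number of arrays limits the precision.

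The members and gene lists were chosen with earlier results of these data known. All 30 members are named, and from each other list at most 3 genes with the smallest p, besides cell type markers; some genes the rule takes are left out. Alternatives covered background correction, normalization, filter, probe rule, slide, title number, variance model and leaving out each sample.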

Additional observations from a re-analysis of the deposited data

How the results depend on the processing

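Of the granule cell genes, 0 were called under every alternative run, with a lowest limma adjusted p of 0.417 (array weights), and their median difference ran from -0.184 to -0.087. The count of all genes called was 11 and became 29 with normexp background correction, 6 with no filter on dim probes, 23 when each array had to pass the background filter, 24 with probes of a gene averaged, 7 with slide as a block, 27 with an intensity trend and 95 with array weights. Leaving out each sample in turn gave 0 to 7, the 0 without transgenic replicate 2, where limma had 1193 genes at an unadjusted p under 0.05. Of the 29 members' differences under alternatives other than leaving out a sample, 276 of 290 kept their sign. The others turned sign, and the cause was not tested: with slide as a block Meis2 became -0.001, Mab21l1 0.008, Nfib 0.006, Cbln3 0.015, Slc17a7 0.166 and Svep1 0.007. With array weights Meis2 became -0.042, Cbln3 0.037, Slc17a7 0.185, Calb2 -0.008 and Svep1 0.004. Slc17a7 became 0.004 with normexp and 0.003 with quantile normalization and with the authors' table. Leaving out a sample turned 12 of 174 differences, and over the 6 such fits the differences ran from -0.259 to 0.097 for Neurod1, -0.023 to 0.302 for Meis2, -0.296 to 0.008 for Mab21l1, -0.184 to 0.006 for Nfib, -0.183 to 0.016 for Cbln3, -0.112 to 0.166 for Slc17a7 and -0.085 to 0.007 for Svep1. No paired analysis was possible because no label pairs the samples, each title carrying a number of its own. With the first digit of that number as a block, 11 genes and 0 members were called. Signal over background limits Atoh1 and the Pax6 probe with the alternative exon, which were not tested. Another probe of Pax6 and a probe each of Meis2, Nfix and Cadps2 were not tested either.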
